A study of Mus musculus with 50 samples.

Results

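De novo lipogenesis, the making of fatty acids from sugar, was followed here through 10 genes in the RNA-seq libraries of liver and liver tumours of male C3H/He mice. The genes were Srebf1, Mlxipl, Fasn, Acaca, Acacb, Acly, Scd1, Elovl6, Me1 and Pnpla3, taken by their symbols from a table of raw read counts for 45792 genes. Each symbol matched 1 row, and all 10 passed the filter on low counts in every comparison. All tissue was taken at 48 weeks of age. Non-tumour liver was sampled 12 times on a control diet low in trans-fat and given without sugar and 11 times on the ALIOS diet (American lifestyle diet), which is rich in fat and trans-fat and is given with fructose in the drinking water. Tumours that arose without a carcinogen, called spontaneous here, comprised 13 from ALIOS fed mice and 1 from a control mouse. Mice given DEN (diethylnitrosamine, a liver carcinogen) supplied a further 13 tumours, 8 from ALIOS fed and 5 from control fed animals. Non-tumour liver of DEN mice was not analysed here, so the effect of DEN and that of being a tumour cannot be told apart in comparisons with liver. The labels do not tie a tumour or a liver sample to a mouse, so p-values measure the spread between these samples and some may share an animal.

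Between 23798251 and 45751398 reads were counted per library. The ALIOS tumour labelled T1 was left out of all values unless stated, because its 6 kidney markers summed to 43500 CPM (counts scaled to 1e+06 per library) against at most 22.1 CPM in any other library, while its 12 hepatocyte markers summed to 4396 CPM. In the other 49 libraries the hepatocyte markers summed to between 86670 and 267000 CPM. Levels below are CPM scaled with TMM factors over these 49 libraries. Fat cells also express these genes, and the summed level of 8 adipocyte markers was 27 to 117 CPM across the groups. Of these markers, Plin1 was at 0 in all control livers and all DEN tumours. It was not at 0 throughout the ALIOS livers or the spontaneous ALIOS tumours. In bulk tissue, fewer cells of a type and less RNA per cell cannot be told apart.

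Lipogenesis turns citrate exported from mitochondria into long-chain fatty acids. ATP citrate lyase (Acly) makes acetyl-CoA, the acetyl-CoA carboxylases (Acaca in the cytosol, Acacb at the mitochondrial surface) make malonyl-CoA, and fatty acid synthase (Fasn) builds palmitate with NADPH that malic enzyme (Me1) helps to supply. Elovl6 lengthens palmitate and Scd1 introduces a double bond. In liver, insulin drives these genes largely through SREBP-1c, encoded by Srebf1, and glucose through ChREBP, encoded by Mlxipl. Pnpla3, a lipid droplet protein, is a known target of both factors.

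On GRCm38, with Gencode M21 gene models, the regulators lie at chr11:60199089-60222581 (Srebf1, minus strand) and chr5:135089890-135138382 (Mlxipl, plus strand). The enzymes of palmitate synthesis lie at chr11:100476353-100528000 (Acly, minus), chr11:84129672-84401651 (Acaca, plus), chr5:114146535-114250761 (Acacb, plus) and chr11:120805846-120824547 (Fasn, minus). Those of elongation, desaturation and NADPH supply lie at chr3:129532355-129638495 (Elovl6, plus), chr19:44394455-44407879 (Scd1, minus) and chr9:86581371-86695953 (Me1, minus), and Pnpla3 at chr15:84167837-84187236 (plus). All reads counted are on annotated exons. In Pnpla3, 6.78% of the exon length is shared with another gene, Gm49513, on the same strand.

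The sequence before the start site is shown for the 2 regulators, for Fasn and Acly, which were the members most closely tied to the others, and for Me1 and Pnpla3, which moved in opposite directions in spontaneous tumours. Sequences are from RefSeq on GRCm38.p6, which is the build mm10 of the count table, and 9 of the 10 members matched an entry. Scd1 did not. Each run is 5′ to 3′ on the strand of the gene and ends at the base before the start site, except that of Me1, which stops short of it where an annotated exon begins. The capitals mark CCAAT boxes (CCAAT or ATTGG), GC boxes (GGGCGG or CCGCCC) and the E-box CACGTG.
Srebf1, the innermost of 3 start sites, chr11:60210472-60210591, minus strand: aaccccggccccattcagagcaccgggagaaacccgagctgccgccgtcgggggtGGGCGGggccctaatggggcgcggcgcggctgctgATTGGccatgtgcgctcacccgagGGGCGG
Mlxipl, the outermost of 2 start sites, chr5:135089770-135089889, plus strand: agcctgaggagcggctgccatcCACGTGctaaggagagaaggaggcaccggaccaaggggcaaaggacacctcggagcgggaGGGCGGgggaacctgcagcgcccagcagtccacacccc
Fasn, chr11:120824548-120824667, minus strand: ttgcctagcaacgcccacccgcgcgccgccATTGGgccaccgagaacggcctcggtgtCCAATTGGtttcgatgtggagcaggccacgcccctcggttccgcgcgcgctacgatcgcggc
Acly, chr11:100528001-100528120, minus strand: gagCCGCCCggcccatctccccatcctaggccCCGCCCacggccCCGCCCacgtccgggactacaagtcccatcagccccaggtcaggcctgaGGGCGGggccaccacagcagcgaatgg
Me1, the outer of 2 start sites, chr9:86695954-86696034, minus strand: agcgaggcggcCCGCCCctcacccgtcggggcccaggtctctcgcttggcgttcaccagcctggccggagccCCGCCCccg
Pnpla3, chr15:84167696-84167815, plus strand: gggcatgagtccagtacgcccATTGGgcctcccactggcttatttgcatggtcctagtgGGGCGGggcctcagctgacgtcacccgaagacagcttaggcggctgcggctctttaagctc

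These letters were searched on both strands in the 250 bases before all 13 start sites listed for the members. A CCAAT box was found in 7 of the 13 windows, against 33.8% of 32817 windows of all genes. A GC box was found in 6 of the 13, against 32.7% of all windows. The E-box CACGTG was in 1 window, that of Mlxipl shown above, against 6.02% of all windows. The sterol regulatory letters TCACNCCAC were also in 1 window, that of the other Mlxipl start site, against 1.05% of all windows. In Fasn, a pair of CCAAT boxes on opposite strands share 2 bases. A match describes the letters and not binding.

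The members spanned a wide range of levels. Per kilobase of exon, Scd1 stood far above all others in each group, with a median of 2157 CPM per kb in control liver and 3861 in ALIOS liver. Acly followed in control liver with 169 CPM per kb, then Fasn with 104, Me1 with 96.5 and Srebf1 with 80.1. Mlxipl at 57.9, Elovl6 at 34.0, Acacb at 18.9, Pnpla3 at 17.1 and Acaca at 9.92 CPM per kb were lower. The ranges of neighbours in this order overlapped between livers. The 10 members together took from 2395 to 70170 CPM, and Scd1 reached 61590 CPM in its highest library, ALIOS liver N19.

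**Figure D1:**
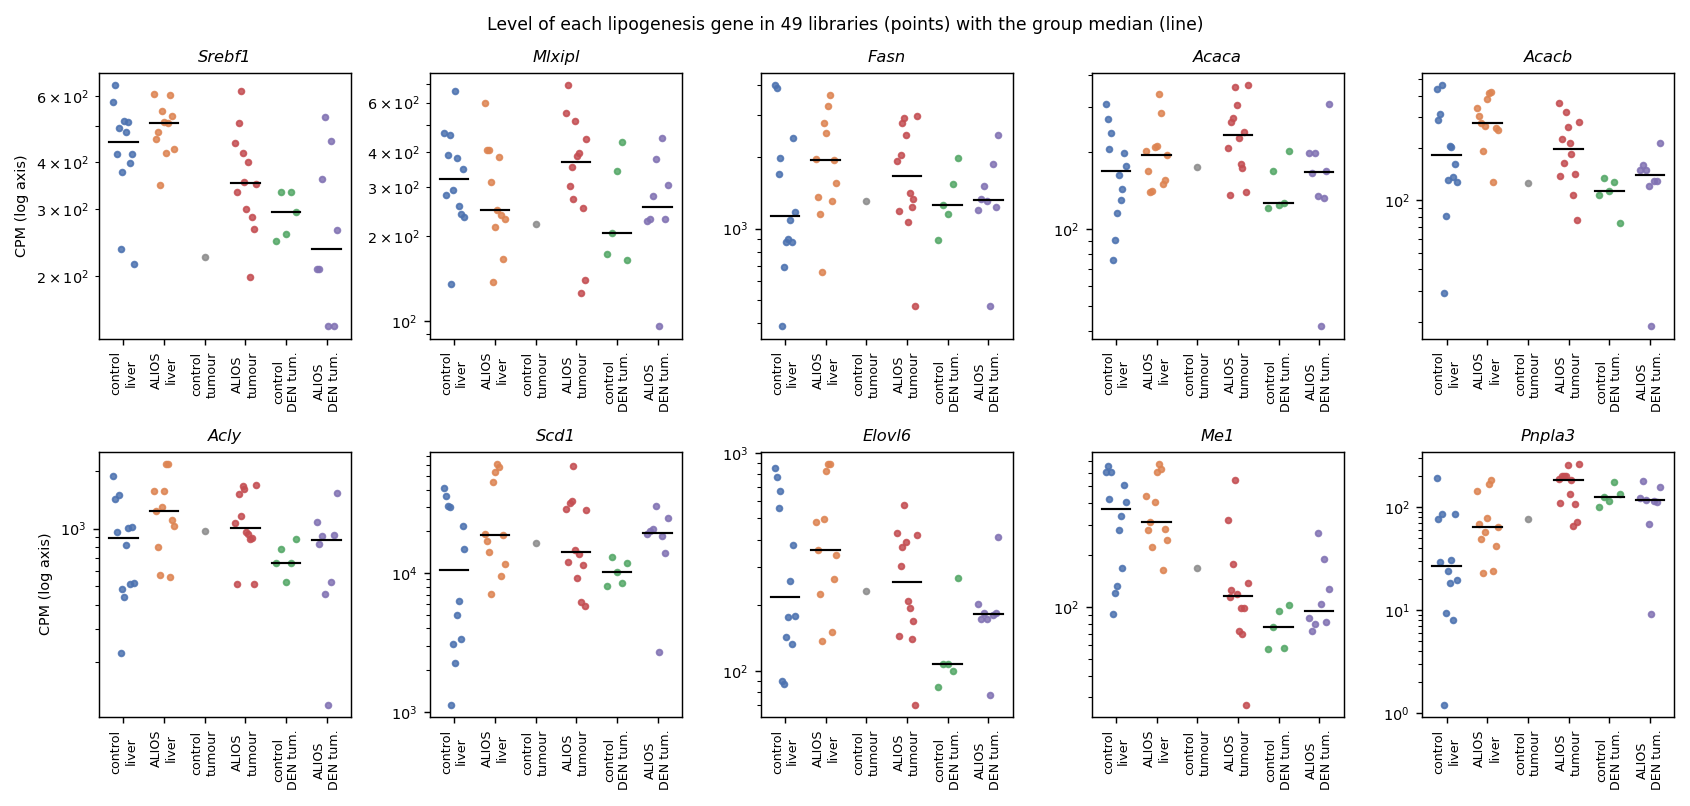
Each panel plots 1 gene, with CPM on a log axis against the 6 groups; points are libraries and lines group medians (the single control tumour has no line). Scd1 ran from 1123 to 41180 CPM among control livers, Me1 was low in most tumours, and Pnpla3 was higher in the ALIOS tumours than in most livers.

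The first question was whether the ALIOS diet changed lipogenesis genes in non-tumour liver. Of the members, 9 of 10 had a higher fitted level in ALIOS liver, by a median of 0.30 on the log2 scale against -0.02 over all 13723 genes tested, yet none passed the test (edgeR quasi-likelihood, Benjamini-Hochberg adjusted p under 0.05). No member reached an unadjusted p under 0.05, and DESeq2 also called 0. Of all genes 11.2% were called, 6.73% higher and 4.51% lower. Scd1 ranged from 1123 to 41180 CPM with a median of 10550 in 12 control livers, and from 7035 to 61590 with a median of 18890 in 11 ALIOS livers. The groups overlapped, although 9 of 11 ALIOS livers lay above the control median. The log2 fold change was 0.81 ± 0.55 (SE; edgeR adjusted p = 0.34), and the 95% interval of the fold ran from 0.80 to 3.84. Pnpla3 ranged from 1.204 to 190 CPM with a median of 26.5 in control livers, and from 22.7 to 181 with a median of 64.2 in ALIOS livers. Again 9 of 11 ALIOS livers lay above the control median, at a log2 fold change of 0.75 ± 0.54 (edgeR adjusted p = 0.37). Fasn had medians of 1133 and 1934 CPM, with 10 of 11 ALIOS livers above the control median. Its log2 fold change was 0.26 ± 0.35 (edgeR adjusted p = 0.66), with a fold between 0.73 and 1.96. For Acly the log2 fold change was 0.50 ± 0.30 (edgeR adjusted p = 0.28), and for Acacb 0.45 ± 0.31 (edgeR adjusted p = 0.35). Mlxipl was the member with a lower fitted level, at -0.19 ± 0.24 (edgeR adjusted p = 0.63). Leaving out each of the 23 livers in turn gave no call for any member.

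The members varied widely among control livers. The SD of log2 CPM was 1.80 for Scd1 and 1.95 for Pnpla3 in control livers, against a median SD of 0.33 over all genes. For Fasn, Acacb, Acly, Scd1, Elovl6, Me1 and Pnpla3 it was larger than that of 94.0% or more of all genes. Srebf1 and Mlxipl, the regulators, varied less, with SDs of 0.48 and 0.59. In ALIOS livers the SD was smaller for 9 of the 10 members, for example 1.12 for Scd1 and 1.02 for Pnpla3. The median SD over all genes was also smaller there, at 0.28. Without the lowest control liver, N5, the control SD was still 1.60 for Scd1 and 1.44 for Pnpla3. The difference in spread between the diets was not tested. High and low livers lay in runs of sample number. Scd1 was 29960 to 41180 CPM in control livers N1 to N4, 1123 to 6263 in N5 to N10, 21750 in N11 and 14840 in N12. In ALIOS livers it was 45450 to 61590 CPM in N17 to N20 and 7035 to 19000 in the others. The sources used here do not say what the numbering reflects, and its part was not tested.

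**Figure D2:**
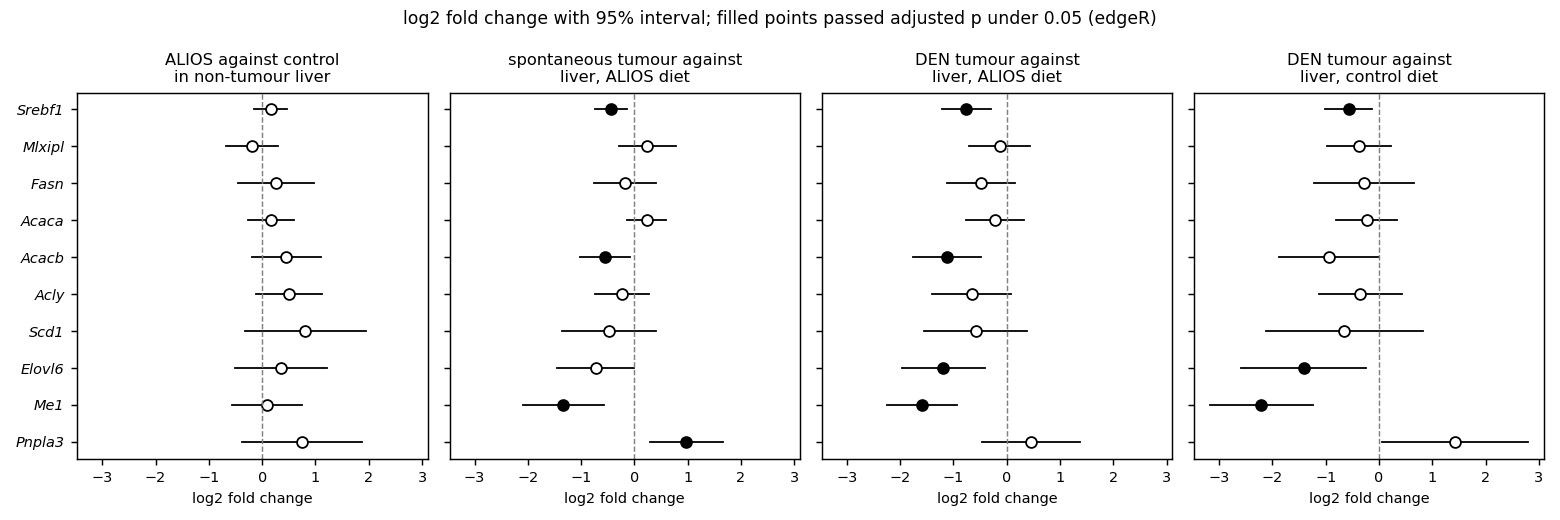
Points give the log2 fold change of each member in 4 comparisons and bars the 95% interval from edgeR; filled points passed an adjusted p under 0.05. No member was called for diet in liver, while Me1 lay at -1.33, -1.60 and -2.21 in the 3 tumour comparisons.

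Spontaneous tumours of ALIOS fed mice were next compared with ALIOS liver (12 tumours and 11 livers). Me1, Acacb and Srebf1 were lower in tumours and Pnpla3 was higher, so 1 of the 10 members was called higher and 3 lower. Of all 14183 genes 26.9% were called higher, 25.9% lower and 52.8% in either direction. The median log2 fold change of the members was -0.34, against 0.01 over all genes. Me1 ranged from 27.1 to 541 CPM in tumours, with a median of 116, and from 163 to 676 in livers, with a median of 308. In 9 of 12 tumours Me1 lay below every ALIOS liver, at a log2 fold change of -1.33 ± 0.37 (edgeR adjusted p = 0.0038). The highest tumours were T6 (541 CPM) and T2 (320 CPM). In the paper's clustering T6 fell among the non-tumour livers. Summed hepatocyte markers were 96570 CPM in T6 and 88770 in T2, against a median of 201900 in this tumour group. Pnpla3 ranged from 65.7 to 263 CPM in tumours, with a median of 183, and from 22.7 to 181 in livers, with a median of 64.2. All 12 tumours lay above the liver median and 6 lay above every liver, at a log2 fold change of 0.98 ± 0.33 (edgeR adjusted p = 0.016). The call of Pnpla3 was lost with all 6 groups in 1 fit (edgeR adjusted p = 0.077) and with T1 included (0.12). Srebf1 had medians of 352 CPM in tumours (199 to 618) and 508 in livers (349 to 605). It was below the liver median in 10 of 12 tumours, at -0.44 ± 0.14 on the log2 scale (edgeR adjusted p = 0.012). This call was lost without T12 (edgeR adjusted p = 0.051) and with library totals in place of TMM factors (0.16). Acacb had medians of 199 CPM in tumours (77.2 to 364) and 278 in livers (127 to 421), at -0.55 ± 0.23 (edgeR adjusted p = 0.046). Leaving out any of 17 of the 23 libraries ended that call. It was also lost in 5 of 6 other settings, with edgeR or DESeq2 adjusted p from 0.040 to 0.18 over the 6. For Fasn the log2 fold change was -0.18 ± 0.28 and for Scd1 -0.48 ± 0.42 (edgeR adjusted p = 0.61 and 0.35), with folds between 0.59 and 1.32 and between 0.39 and 1.32.

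DEN tumours of ALIOS fed mice showed lower Srebf1, Acacb, Elovl6 and Me1 than ALIOS liver (8 tumours and 11 livers). These 4 of 10 members were called lower, against 19.8% of 14434 genes called lower, 27.7% higher and 47.5% in either direction, and no member was called higher. The members' median log2 fold change was -0.62, and that of all genes 0.08. Me1 ranged from 72.6 to 267 CPM with a median of 95.2 in these tumours, and all 8 were below the liver median of 308. For Me1 the log2 fold change was -1.60 ± 0.31 (edgeR adjusted p = 0.00038). Elovl6, which lengthens palmitate, ranged from 78.1 to 412 CPM with a median of 183, against 137 to 892 with a median of 357 in liver. Its log2 fold change was -1.19 ± 0.37 (edgeR adjusted p = 0.013), and 7 of 8 tumours lay below the liver median. Acacb ranged from 18.8 to 214 CPM with a median of 139, and all 8 tumours were below the liver median of 278. This made -1.12 ± 0.30 on the log2 scale (edgeR adjusted p = 0.0052). Srebf1 had a median of 236 CPM (147 to 527), and 5 of 8 tumours lay below every ALIOS liver. Its log2 fold change was -0.76 ± 0.22 (edgeR adjusted p = 0.0085). All 4 genes stayed called when each of the 19 libraries was left out in turn.

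DEN tumours on the control diet (5 against 12 control livers) showed lower Me1, Elovl6 and Srebf1. These were 3 of 10 members, against 24.4% of 14731 genes called lower, 27.3% higher and 51.7% in either direction. Me1 was 56.8, 76.9, 94.7, 57.4 and 102 CPM in tumours T17 to T21, and 90.8 to 657 with a median of 371 in the livers. All 5 tumours were below the liver median and 3 were below every liver, at a log2 fold change of -2.21 ± 0.46 (edgeR adjusted p = 0.00051). Elovl6 was 84.8, 108, 108, 100.4 and 267 CPM in T17 to T21, against 87.2 to 852 with a median of 219 in the livers. Only T21 was above the liver median, and the log2 fold change was -1.42 ± 0.56 (edgeR adjusted p = 0.042). Srebf1 was 247, 333, 259, 334 and 295 CPM, all below the liver median of 451, at -0.57 ± 0.21 (edgeR adjusted p = 0.029). Without T17 or T19 the calls of Srebf1 and Elovl6 were lost, with edgeR adjusted p between 0.070 and 0.097, and that of Elovl6 was also lost without T18 (0.084) or T20 (0.083). Pnpla3 was 99.7, 126, 114, 175 and 132 CPM, all above the liver median of 26.5 and within the liver range of 1.204 to 190. Its log2 fold change was 1.43 ± 0.66 (edgeR adjusted p = 0.077).

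The other members did not pass the test between tumours and liver, and their ranges are given here. Fasn had medians of 1667 CPM (476 to 2954) in spontaneous, 1313 (472 to 2477) in ALIOS DEN and 1934 (657 to 3640) in ALIOS liver. Fasn in the control DEN tumours T17 to T21 was 895, 1256, 1155, 1542 and 1980 CPM, within the control liver range of 389 to 3987. Fatty acid synthase thus overlapped in all groups. Acly had medians of 1013 CPM (511 to 1687) in spontaneous, 875 (120 to 1536) in ALIOS DEN and 1236 (560 to 2191) in ALIOS liver, with log2 fold changes of -0.23 ± 0.24 and -0.66 ± 0.36 (edgeR adjusted p = 0.44 and 0.14). Acaca had medians of 233 CPM (136 to 365), 167 (41.6 to 309) and 195 (140 to 336) in the same order, at 0.23 ± 0.18 and -0.22 ± 0.26 (edgeR adjusted p = 0.30 and 0.50). The carboxylases therefore differed in call in the main fits, Acacb being lower in both ALIOS comparisons and Acaca in neither. The Acacb call in spontaneous tumours was lost in 5 of 6 other settings, and the difference between the carboxylases was not tested. Mlxipl had medians of 369 CPM (126 to 691), 255 (95.5 to 450) and 249 (138 to 599), at 0.24 ± 0.26 and -0.13 ± 0.28 (edgeR adjusted p = 0.45 and 0.72). Scd1 had medians of 14120 CPM (5807 to 58810), 19600 (2712 to 30430) and 18890 (7035 to 61590). Elovl6 in spontaneous tumours had a median of 256 CPM (70.2 to 575), at -0.73 ± 0.35 (edgeR adjusted p = 0.080). Against control liver, the control DEN tumours gave -0.28 ± 0.45 for Fasn, -0.65 ± 0.70 for Scd1 and -0.94 ± 0.45 for Acacb (edgeR adjusted p = 0.63, 0.46 and 0.087).

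The remaining comparisons called no member. DEN and spontaneous tumours on the ALIOS diet (8 and 12) differed in 0 of 14845 genes by edgeR, a background of 0%, with 1079 genes at an unadjusted p under 0.05 and 75 genes by DESeq2. All 10 members had a lower fitted level in the DEN tumours, with a median log2 fold change of -0.46 against 0.0038 over all genes. No member reached an unadjusted p under 0.05. The largest change of a member was that of Acacb at -0.63 ± 0.32 (edgeR adjusted p = 0.74). The members are correlated, so these are not 10 separate results. Leaving out spontaneous tumour T9 or DEN tumour T24 gave -0.25 and -0.007 for Scd1 and -0.41 and -0.23 for Fasn as lowest and highest values. Between diets in DEN tumours (8 and 5), 0.0134% of 14944 genes were called by edgeR and none was a member, with Me1 the 1 member at an unadjusted p under 0.05 and 0 members called by DESeq2. Scd1 was higher by 0.86 ± 0.42 on the log2 scale in the ALIOS DEN tumours (edgeR adjusted p = 0.62) and Me1 by 0.70 ± 0.32 (0.58). In Scd1, 7 of the 8 ALIOS DEN tumours lay above all 5 control DEN tumours, and T24 lay below them all. Leaving out T24 or any control DEN tumour gave 0.79 to 1.03 for Scd1, with edgeR adjusted p from 0.11 to 0.93. The test of whether diet acted differently in DEN tumours and liver called 2.27% of 15606 genes (1.04% higher, 1.23% lower) and no member by edgeR or DESeq2, nor any member at an unadjusted p under 0.05, with the widest difference for Pnpla3 at -0.99 ± 0.83 (edgeR adjusted p = 0.58). In every comparison the ranges of both groups overlapped for all 10 members. Groups did not overlap in 0.0729% of all genes for diet in liver, 4.19% for spontaneous tumours, 9.23% for ALIOS DEN tumours, 22.5% for control DEN tumours, 0% between DEN and spontaneous tumours and 0.662% for diet in DEN tumours. The tumour comparisons share livers, and the ALIOS comparisons share tumours, so their values are not independent of each other. In the single spontaneous tumour of a control mouse, T7, all members lay within the range of the control livers. It held 169 CPM of Me1, below 8 of 12 control livers, 224 CPM of Srebf1, below 11 of 12, and 76.9 CPM of Pnpla3, above 8 of 12.

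Partner genes of the pathway, on lists of related function, included larger fold changes than any member's. Of 9 genes that supply substrate and NADPH, 2 were higher and 5 lower in spontaneous tumours, 2 and 5 in ALIOS DEN tumours, and 2 and 4 in control DEN tumours. Of all genes, 26.9%, 27.7% and 27.3% were called higher and 25.9%, 19.8% and 24.4% lower in the same order. The 2 higher genes were G6pdx and Pgd in each case, the oxidative steps of the pentose phosphate pathway that make NADPH as malic enzyme does. G6pdx had medians of 6.32 CPM in control liver and 11.8 in ALIOS liver, against 47.0 in spontaneous, 27.7 in ALIOS DEN and 26.1 in control DEN tumours. Its log2 fold changes from liver were 1.64 ± 0.27, 1.39 ± 0.40 and 2.20 ± 0.28 in that order of tumours (edgeR adjusted p = 2.3e-05, 0.0074 and 2.1e-06). Me1 and G6pdx thus moved in opposite directions in the same 3 comparisons. Idh1, another cytosolic source of NADPH, was lower at -0.81 ± 0.11, -0.88 ± 0.11 and -0.89 ± 0.13 (edgeR adjusted p = 4.5e-06, 2.7e-06 and 1.6e-05). Acss2, which makes acetyl-CoA from acetate, was lower at -0.88 ± 0.16, -1.05 ± 0.21 and -1.05 ± 0.22 (edgeR adjusted p = 7.9e-05, 0.00040 and 0.00062).

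Of 13 genes of desaturation, elongation and activation, 11 were tested in each comparison with liver, and 5 were higher and 2 lower in spontaneous tumours. In ALIOS DEN tumours 3 were higher and 1 lower, and in control DEN tumours 6 were higher and 1 lower. The shares of all genes called in either direction were 52.8%, 47.5% and 51.7% in these 3 comparisons. Scd2, the desaturase paralogue of Scd1, had medians of 8.18 CPM in control liver and 25.1 in ALIOS liver, against 599.8 in spontaneous, 749 in ALIOS DEN and 395 in control DEN tumours. Its log2 fold changes were 4.08 ± 0.49, 4.17 ± 0.56 and 5.39 ± 0.33 (edgeR adjusted p = 7.3e-07, 7.3e-06 and 1.5e-10), while Scd1 was not called in any of them. Acsl4 and Acsl5, which activate fatty acids with CoA, were higher in all 3 comparisons, Acsl4 by 1.05 ± 0.23, 1.12 ± 0.24 and 1.58 ± 0.14 (edgeR adjusted p = 0.00062, 0.00071 and 2.3e-08). Acsl1, the main hepatic form, was lower at -1.03 ± 0.17 in spontaneous and -1.01 ± 0.16 in ALIOS DEN tumours (edgeR adjusted p = 2.3e-05 and 5.9e-05). Reads shared by paralogues such as Scd1 and Scd2 could be split or dropped by the counting, and their part in these values was not tested.

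**Figure D3:**
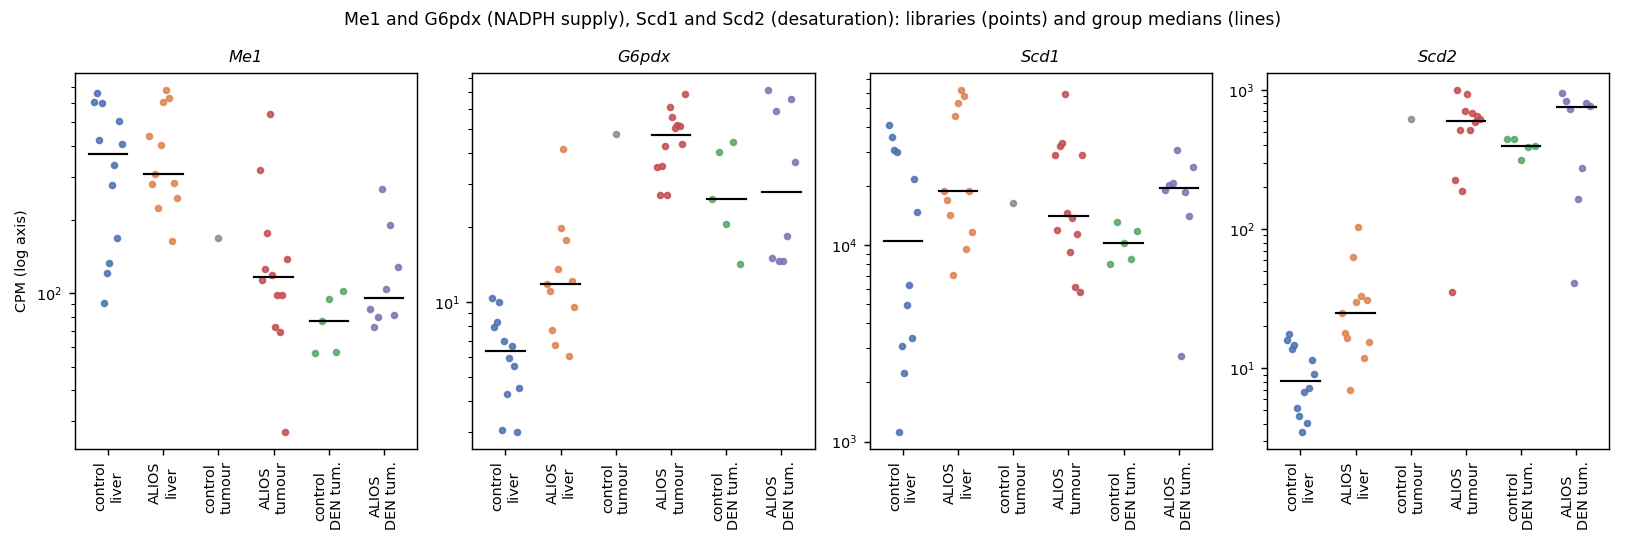
CPM on a log axis in 49 libraries (points) with group medians (lines) for Me1 and G6pdx, which act in NADPH supply, and for Scd1 and Scd2, which desaturate fatty acids. G6pdx and Scd2 had higher medians in tumours than in liver, from 6.32 and 8.18 CPM in control liver to 47.0 and 599.8 CPM in spontaneous ALIOS tumours, while the Me1 median was 371 CPM in control liver and 116 CPM in those tumours and the ranges of Scd1 overlapped.

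Among 14 co-regulators and SREBP processing genes, 6 were higher and 3 lower in spontaneous tumours, 6 and 4 in ALIOS DEN tumours, and 5 and 3 in control DEN tumours. Thrsp (Spot14), a lipogenic target gene of insulin and thyroid hormone, had the most negative fold change of this list in each. Its median was 2069 CPM in ALIOS liver, 581 in spontaneous and 149 in ALIOS DEN tumours, and its log2 fold changes were -1.79 ± 0.37, -3.28 ± 0.41 and -2.12 ± 0.56 (edgeR adjusted p = 0.00033, 3.8e-06 and 0.0036). The 8 ALIOS DEN tumours did not overlap the ALIOS livers in Thrsp. Srebf2, whose product drives cholesterol synthesis, was higher at 0.37 ± 0.11, 0.46 ± 0.12 and 0.42 ± 0.14 (edgeR adjusted p = 0.0070, 0.0038 and 0.014), opposite to Srebf1. Usf1 and Mlxip were also higher in all 3, and Nr1h3, which encodes the sterol receptor LXR alpha, was lower at -0.31 ± 0.10, -0.38 ± 0.10 and -0.35 ± 0.08 (edgeR adjusted p = 0.0089, 0.0042 and 0.0016). Scap, needed to carry SREBPs to the Golgi, was higher in spontaneous and control DEN tumours, at 0.40 ± 0.13 and 0.41 ± 0.15 (edgeR adjusted p = 0.012 and 0.025). Of 8 glycerolipid genes, 3, 2 and 2 were lower and 0, 0 and 1 higher in the order of spontaneous, ALIOS DEN and control DEN tumours. The co-regulator and glycerolipid counts stand against 52.8%, 47.5% and 51.7% of all genes called in either direction. Dgat2, which completes triglyceride, was lower at -0.73 ± 0.13, -1.16 ± 0.14 and -0.63 ± 0.15 (edgeR adjusted p = 7.4e-05, 1.6e-06 and 0.0017).

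In non-tumour liver some partner genes were called for diet. Of those tested, 2 of 9 supply genes and 1 of 8 glycerolipid genes were higher, 3 of 11 desaturation and activation genes were higher and 1 lower, and none of 14 co-regulators was called, against 11.2% of all genes. Mogat1, a monoacylglycerol acyltransferase, had medians of 0.56 CPM in control and 5.22 CPM in ALIOS liver, at a log2 fold change of 3.46 ± 0.56 (edgeR adjusted p = 0.0011). Scd2 rose by 1.75 ± 0.38 (edgeR adjusted p = 0.0074), G6pdx by 1.16 ± 0.29 (0.013), and the polyunsaturated fatty acid desaturases Fads2 by 0.78 ± 0.20 (0.015) and Fads1 by 0.65 ± 0.16 (0.012). Taldo1 rose by 0.19 ± 0.06 (edgeR adjusted p = 0.042). Elovl3 was lower at -2.21 ± 0.61 (edgeR adjusted p = 0.022), from a median of 47.0 CPM in control to 25.5 CPM in ALIOS liver. The highest Elovl3 among control livers was 578 CPM, in N11.

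The members were correlated across libraries. With group means removed and the groups pooled, all 45 pairs correlated positively over 48 libraries, from r = 0.29 (Mlxipl and Acaca) to 0.93 (Acaca and Acly), with a median of 0.76. These libraries share the scaling by depth, and the values are given as a description. Fasn and Acly had the highest median r with the other 9 members (both 0.84). Srebf1, at 0.49, and Mlxipl, at 0.33, had the lowest.

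**Figure D4:**
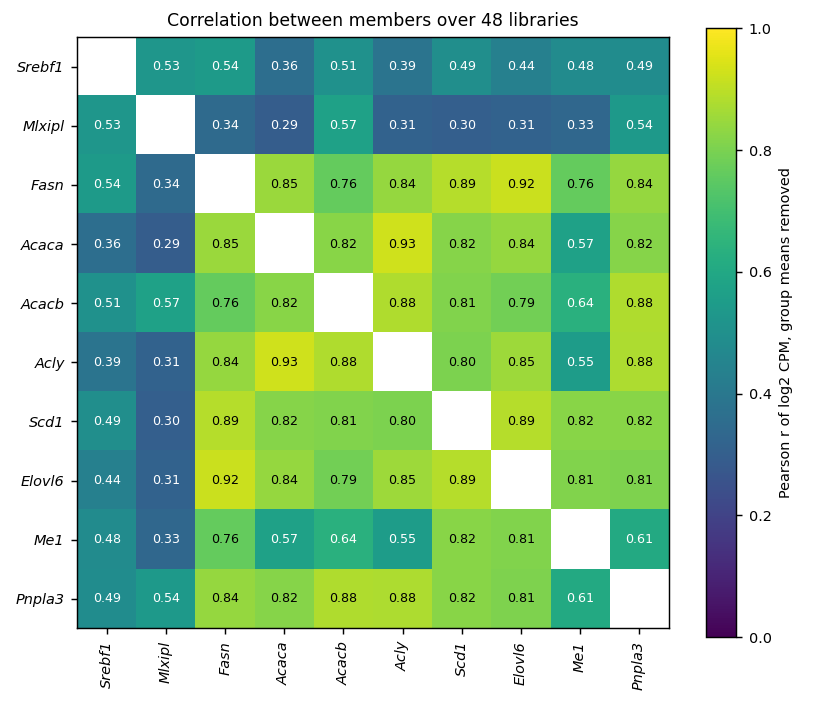
Each cell gives Pearson's r of log2 CPM between 2 members over 48 libraries after group means were removed, coloured from 0 to 1. The enzymes form a block of high values around Fasn and Elovl6 (0.92), and the Mlxipl row holds the lowest (0.29 with Acaca).

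Relations to Fasn were then tested within each group, for the 9 other members and Pck1 in 4 groups, 40 relations in all (permutation tests, Benjamini-Hochberg adjusted). These tests treat the libraries of a group as exchangeable, so their p-values do not allow for the runs of high and low livers by sample number. In 12 control livers 9 of 10 relations were called, in 11 ALIOS livers 7, in 12 spontaneous ALIOS tumours 8, and in 8 ALIOS DEN tumours 7. Scd1 followed Fasn with r = 0.93 (rho = 0.95) in control liver, 0.93 (rho = 0.94) in ALIOS liver and 0.85 (rho = 0.86) in spontaneous tumours, with adjusted permutation p for r of 0.0001, 0.0004 and 0.0013. Without the 2 libraries farthest from the Fasn median r was 0.93, 0.92 and 0.84. Elovl6 gave r = 0.93 (rho = 0.97), 0.90 (rho = 0.94) and 0.94 (rho = 0.83), with adjusted permutation p for r of 0.0001, 0.0006 and 0.00046, and 0.89, 0.85 and 0.90 without those 2 libraries. Mlxipl did not pass in these 3 groups, with r = 0.47 (rho = 0.42), -0.23 (rho = -0.24) and 0.46 (rho = 0.22), and adjusted permutation p for r of 0.15, 0.52 and 0.15. In the ALIOS DEN tumours Pearson's r was 0.86 for Scd1 and 0.92 for Elovl6 (exact permutation test, adjusted p = 0.041 and 0.032), but rho was 0.55 and 0.43, and r was 0.01 and -0.24 without T24 and T27. None of the 7 relations called in that group passed without these 2 tumours. For Acaca, Acacb, Acly, Scd1, Elovl6 and Pnpla3 r then lay between -0.49 and 0.04, so these relations rest on T24 and T27. Mlxipl differed from the rest of that group, with r = 0.86 and rho = 0.81 (exact permutation test, adjusted p = 0.028 and 0.036), and r stayed at 0.76 without them (adjusted p = 0.11).

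Pck1, the gluconeogenic enzyme that insulin represses, ran against Fasn in control liver. There r was -0.81 (rho = -0.78; adjusted permutation p for r 0.0026), and -0.74 without N1 and N2 (0.031). In ALIOS liver the relation did not pass, with r = -0.62 (rho = -0.60; adjusted permutation p for r 0.052), and -0.67 without N16 and N20 (0.099). In spontaneous tumours r was -0.17 (rho = 0.03; adjusted permutation p for r 0.61), and 0.16 without T13 and T14. In ALIOS DEN tumours the sign was positive and the relation did not pass, with r = 0.74 (rho = 0.41, exact permutation test, adjusted p for r 0.090). Without T24 and T27 r was 0.29 there. The difference between liver and tumour in this relation was not tested.

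Some extreme libraries moved across nearly the whole set, and others did not. Control liver N5 was the lowest of its group in 8 of 10 members, by a median of -1.85 on the log2 scale from the median of the other 11, and by -4.61 in Pnpla3 (1.204 against 29.3 CPM). N5 also had the highest Pck1 (2619 CPM) and Igfbp1 (121 CPM) of the control livers. Control liver N1 was the highest in 6 of 10 members, with the lowest Igfbp1 of the group (4.16 CPM). Igfbp1 is an insulin-repressed liver gene that rises in fasting. The methods say that pilot mice were killed after a glucose tolerance test begun in the fasted state. A footnote to the paper's macrophage counts in liver describes the cases used for RNA-seq as a subset of the later follow-up study. The feeding state at killing in that study, and the study that each tumour came from, are not given in the sources used here. The part of feeding state in these values was not tested. Spontaneous tumour T13 was the lowest of its group in 5 members and the highest in Igfbp1 (1994 CPM). ALIOS DEN tumour T24 was the lowest of its 8 in 9 members, with Me1 the exception at 104 CPM, and held 3.195 CPM of Pck1 against a median of 220 in the other 7 and 2872 CPM of Igfbp1 against 409. T24 also had the lowest summed hepatocyte markers of its group (93200 CPM, group median 194800) and the highest stellate and fibroblast markers (1187 CPM, group median 153). Without T24 the same number of members, 4, was called in the ALIOS DEN comparison. Other libraries had mixed signs against the rest of their group. ALIOS DEN tumour T23 ran from -1.01 to 1.63 over the members on the log2 scale. ALIOS tumour T6 ran from -0.499 to 2.25 and ALIOS liver N19 from -0.265 to 1.78. Control liver N6 and control DEN tumour T17 lay below 0 in every member, by medians of -1.16 and -0.361.

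**Figure D5:**
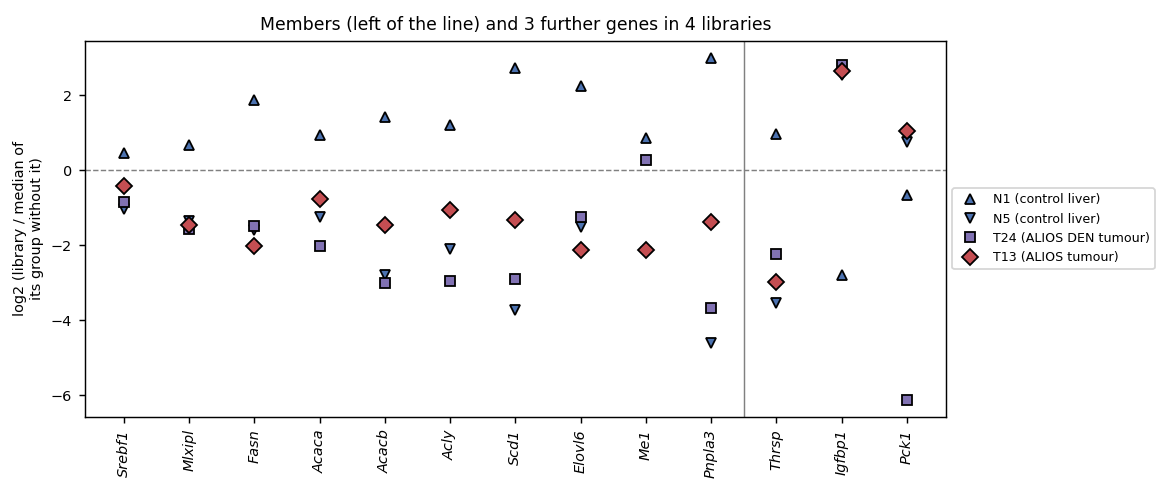
For control livers N1 and N5, ALIOS tumour T13 and ALIOS DEN tumour T24, the vertical axis gives log2 of the level over the median of the other libraries of its group; members stand left of the line and Thrsp, Igfbp1 and Pck1 right of it. N5 and T13 lie below 0 in all 10 members and T24 in 9, N1 lies above 0 in all of them, and Igfbp1 lies on the opposite side in each of these libraries.

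Other measures moved with the groups. Summed hepatocyte markers had medians of 133300 CPM in control liver and 119600 in ALIOS liver. The medians were 201900 in spontaneous, 194800 in ALIOS DEN and 206600 in control DEN tumours. Of these 12 markers, 4 were higher in each tumour comparison with liver, and 4, 3 and 3 were lower in the same order. In tumours Igfbp1 was higher and Pck1 lower than in liver. Igfbp1 log2 fold changes were 4.30 ± 0.61, 5.24 ± 0.57 and 4.80 ± 0.57 in spontaneous, ALIOS DEN and control DEN tumours (edgeR adjusted p = 4.4e-06, 7.5e-07 and 1.1e-06), and those of Pck1 were -1.71 ± 0.30, -1.60 ± 0.63 and -1.71 ± 0.29 (edgeR adjusted p = 5.3e-05, 0.0435 and 5.7e-05). The 8 macrophage markers included 6 that were higher in ALIOS than in control liver and 7 that were lower in spontaneous tumours than in ALIOS liver, with sums of 185 to 475 CPM in control liver, 275 to 1011 in ALIOS liver and 50.2 to 523 in those tumours. Of these markers 2 were lower in ALIOS DEN and 4 in control DEN tumours. Of 6 cycling markers, 4, 6 and 6 were higher in spontaneous, ALIOS DEN and control DEN tumours, with summed medians of 3.88 CPM in control liver, 7.23 in ALIOS liver, 20.3 in spontaneous, 52.4 in ALIOS DEN and 29.7 in control DEN tumours. Of 7 stellate and fibroblast markers, 1, 3 and 4 were higher and 2 lower in each of the 3 tumour comparisons. In ALIOS liver 2 biliary, 2 stellate and 2 cycling markers were higher than in control liver and none was lower. The clock gene Arntl, whose level depends on the time of day, had a median of 12.7 CPM (0.92 to 32.9) in ALIOS DEN tumours, 1.78 (1.08 to 2.66) in ALIOS liver, 2.16 (1.08 to 10.2) in spontaneous tumours and 0.83 (0.59 to 2.45) in control DEN tumours. Control liver N12, at 23.01 CPM, and tumour T7, at 24.3 CPM, were also high. Of 13 clock genes, 4 were higher and 5 lower in ALIOS DEN tumours than in ALIOS liver, against 1 and 1 of 12 tested in each of the other 2 tumour comparisons. The part of these differences in the members' values was not tested. Beside these marker counts, 11.2% of all genes were called for diet in liver. In spontaneous, ALIOS DEN and control DEN tumours it was 52.8%, 47.5% and 51.7%.

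The genes most like the members were taken as the 5 with the highest mean r with the 10 members over 48 libraries, group means removed, of 17718 genes ranked. They were Lactb2 with a mean r of 0.73, Mir6392 with 0.73, Elovl5 with 0.72, Tmem135 with 0.72 and Pdk1 with 0.71. Elovl5 lengthens polyunsaturated fatty acids and Pdk1 inhibits pyruvate dehydrogenase. Of the partner genes on the pathway lists other than Elovl5, Acss2 (0.69), Thrsp (0.64) and Idh1 (0.64) came closest, while Scd2 (0.23) and G6pdx (0.34) followed the members weakly, and Srebf2 was the lowest of them at -0.495.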

How the data were processed

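Per the labels and the study's methods, stranded mRNA libraries were mapped by the authors to mm10 with STAR, and the deposited values are raw counts of reads per gene on Gencode exons from HTSeq. Tool versions and the strand option are not given in the sources used here, so a gene's reads may include some from an antisense partner. Antisense exons covered at most 4.24% of a member's exon length (Mlxipl). Counts of reads are not independent molecules.

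Groups came from the labels. Each comparison was fitted on its own groups with edgeR 4.0.16 (filterByExpr, TMM, glmQLFit, glmQLFTest, no covariates) in R 4.3.3, with Benjamini-Hochberg adjustment over all genes tested and a call at an adjusted p under 0.05. SE is the log2 fold change divided by the root of the F statistic. On simulated counts for the diet comparison (13647 genes), 76.1% of genes changed 1.5-fold and 95.5% changed 2-fold were recovered, and 47.8% and 86.6% for control DEN tumours against liver (14516 genes). The genes changed in the simulation were drawn at random and not matched to the members in spread. Every member varied more between control livers than the median gene, with an SD of log2 CPM of 0.48 to 1.95 against 0.33. These recovery rates therefore do not apply to the members. Levels per kb used exon lengths of Gencode M21. Correlations used log2 CPM with a prior count of 2 and 100000 resamples, or exact permutation where fewer than 10 libraries were compared.

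The members and the lists were chosen with earlier results of these data known. Named genes are the members, per comparison up to 5 higher and 5 lower of the called genes of 4 pathway lists by size of change, markers, and the 5 most alike genes. Genes of the fasting list, the libraries singled out and genes of small change (Nr1h3, Scap, Srebf2, Usf1, Mlxip, Taldo1) were also named, some after their values were seen. 1 gene of the pathway lists was left out of the list counts and is not reported here.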

Additional observations from a re-analysis of the deposited data

Results flagged for a closer look

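In groups of 4 to 10 libraries, a library was singled out when its gap to the nearest other library was large for the range of its group (Dixon's 95% critical value, on log2 CPM). Of 20 searches, 10 members in each of 2 groups, 7 met this, where 1 was expected by chance. In 6 of them ALIOS DEN tumour T24 was far below the other 7 tumours, with 95.5 CPM of Mlxipl, 472 CPM of Fasn, 41.6 CPM of Acaca, 18.8 CPM of Acacb, 2712 CPM of Scd1 and 9.21 CPM of Pnpla3. These 6 are 1 library and not 6 separate events. In the remaining 1, control DEN tumour T21 was far above the other 4 in Elovl6, at 267 CPM.

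The change from liver to DEN tumour differed between the diets in 4 genes of the pathway, fasting and clock lists (edgeR interaction). The log2 fold change was larger on the ALIOS diet by 6.93 ± 1.75 for Elovl3 (edgeR adjusted p = 0.0295), by 5.06 ± 1.08 for Arntl (0.011), by 1.61 ± 0.39 for Clock (0.025) and by 7.34 ± 1.45 for Npas2 (0.0074). No member differed in this test.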

How the results depend on the processing

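Of 1210 fold changes recomputed under other settings, 1172 kept their side of the threshold, 35 lost and 3 gained a call, and none reversed a called direction. With library totals in place of TMM factors, 2 members were called in spontaneous tumours and 1 in control DEN tumours; this scaling moved all genes by 0.14 on the log2 scale between spontaneous or ALIOS DEN tumours and liver. It changed the split of all called genes in spontaneous tumours from 3812 higher and 3675 lower to 5526 and 2059, in ALIOS DEN tumours from 3995 and 2856 to 5159 and 1822, and for diet in liver from 923 and 619 to 1238 and 184. With all 6 groups in 1 fit, 2 members were called in spontaneous tumours and 5 in control DEN tumours, the latter with Acacb (edgeR adjusted p = 0.044) and Pnpla3 (0.034) added. That fit called 623 genes for diet in liver, 403 between DEN and spontaneous tumours, 296 for diet in DEN tumours and 220 for the interaction. DESeq2 called 75, 155 and 657 genes in the last 3. Without a filter 1 gene was called for diet in DEN tumours. In spontaneous tumours the call of Pnpla3 was lost in the fit of all 6 groups and with T1 included, where Me1 was the 1 member called. Without the 2 libraries farthest from the Fasn median, 20 of the 40 relations were called instead of 31.

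Leaving out 1 library at a time, chosen after seeing the data for the diet, spontaneous and ALIOS DEN comparisons, gave 949 to 2343 genes for diet in liver (without N17 and without N13; 957 without N19), 2 to 5 called members in spontaneous tumours (2 without T12), 1 to 3 in control DEN tumours (1 without T17 or T19), 0 to 14 genes for diet in DEN tumours (14 without T24, 1 without T20, 0 without T17, T18, T19 or T21) and 174 to 732 for the interaction (without T17 and without T24, with 191 without T18 or T20). The ALIOS DEN count stayed at 4. The cause of these changes was not tested. No paired analysis was possible because the labels number livers and tumours separately and do not name the animal.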
